A study of Homo sapiens with 4 samples.

Results

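The regions described here are 2269 SPIB peaks of suspended H1703 cells that lay at the ends of protein-coding genes and had no overlapping peak in attached cells. They were selected on the authors' peak calls in both conditions and on peak length. Of 9024 peaks in the suspended list, 8981 were on chromosomes 1 to 22, X and Y, and 8773 of these overlapped no attached peak. The summits of 2545 lay within 1 kb of either end of a protein-coding gene span in the RefSeq table for GRCh38, and 2269 of those were under 750 bp long, which is 25.1% of the suspended list. The 276 that were 750 bp or longer were left out. A single peak is named after the protein-coding gene whose end was nearest its summit. Counts per gene, gene lists and gene pairs instead take every protein-coding gene with an end within 1 kb of the summit. A neighbour's end can then be nearer.

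SPIB binding was mapped by chromatin immunoprecipitation with sequencing (ChIP-seq) in H1703, an established human lung squamous carcinoma line. Every library came from cells overexpressing SPIB, and the antibody, anti-FLAG M2, recognises an epitope tag rather than SPIB itself. Each condition, attached or suspended, had 1 ChIP library and 1 input library of sonicated DNA, so no p-value between conditions could be given. The labels name 24 h of suspension in the treatment field of all 4 libraries, and the separate condition field was used to tell attached from suspended. The tagged protein was overexpressed, so its sites need not be those of SPIB at its normal level. ChIP-seq does not measure expression, so lineage markers of the cells could not be checked. Filtered ChIP tags numbered 20766909 in the suspended and 21108364 in the attached library, while the inputs held 21437074 and 15878452. The attached list held 462 peaks, and absence from it does not show that a site was unbound. An attached peak lay within 1 kb of 16 of the 2269 members without overlapping them.

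SPIB belongs to the ETS transcription factors and works with its close relative PU.1 in B cells and plasmacytoid dendritic cells. ETS proteins bind DNA around the core letters GGAA, and the bases before the core separate the classes: SPIB and PU.1 prefer a purine-rich run such as GAGGAAGT, while many other ETS proteins, such as ELK4 and GABPA, prefer CCGGAAGT. Most housekeeping genes start in CpG islands, stretches rich in the dinucleotide CG that often carry ETS-type letters, whereas many tissue-restricted genes start outside them.

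The following stretches show ETS-type letters near the summits of members, because the counts of letters near summits given further on rest on such matches. They were chosen by fold, after the values were seen, from 20 starts with GAGGAAGT and 13 with CCGGAAGT within 50 bp of the summit, leaving out stretches that overlapped a gene. Each is the RefSeq sequence (GRCh38) upstream of the named gene's start, on the gene's own strand, with the letters GAGGAAGT, or the reverse complement ACTTCCTC, in capitals.
GPR137B, chr1:236142457-236142538, plus strand: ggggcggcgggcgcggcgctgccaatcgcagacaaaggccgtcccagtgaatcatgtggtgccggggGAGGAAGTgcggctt
NRBF2, chr10:63133249-63133327, plus strand: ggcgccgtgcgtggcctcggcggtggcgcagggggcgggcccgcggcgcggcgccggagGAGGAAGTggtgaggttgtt
ISL2, chr15:76336548-76336667, plus strand: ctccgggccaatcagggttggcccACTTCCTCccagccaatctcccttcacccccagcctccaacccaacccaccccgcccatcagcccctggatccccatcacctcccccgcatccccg
ITGAV, chr2:186589906-186590025, plus strand: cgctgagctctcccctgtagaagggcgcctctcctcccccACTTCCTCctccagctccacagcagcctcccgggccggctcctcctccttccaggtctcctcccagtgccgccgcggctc
DELE1, chr5:141923743-141923862, plus strand: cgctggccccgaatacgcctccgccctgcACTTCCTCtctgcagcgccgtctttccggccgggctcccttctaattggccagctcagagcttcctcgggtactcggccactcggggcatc

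The second pair shows the other ETS class, with CCGGAAGT or its reverse complement ACTTCCGG in capitals.
APPL2, chr12:105236218-105236337, minus strand: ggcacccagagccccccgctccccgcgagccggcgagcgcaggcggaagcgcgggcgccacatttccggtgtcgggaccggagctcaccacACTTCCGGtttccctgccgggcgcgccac
IKZF4, chr12:56007400-56007503, plus strand: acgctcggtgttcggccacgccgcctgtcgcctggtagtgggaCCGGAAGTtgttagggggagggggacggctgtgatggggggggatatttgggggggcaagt

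NRBF2 encodes a subunit of the class III PI3-kinase complex that starts autophagosomes. Its peak held 31 ChIP tags at a fold enrichment of 14.7, and the centre of GAGGAAGT lay 3 bp from the summit. Fold enrichment, or fold, compares a peak's ChIP tags with the background around it, as the authors' caller computed it. GPR137B, a lysosomal membrane protein, had 23 tags at fold 16.4, with the letters 11 bp from the summit. ITGAV, the integrin alpha-V subunit that binds extracellular matrix, had 18 tags at fold 12 and the letters 16 bp upstream of the summit. In DELE1, which relays mitochondrial stress to the cytosol, 59 tags at fold 11.9 lay with the letters 27 bp upstream of the summit. ISL2, a LIM-homeodomain factor, had 16 tags at fold 12.3. The members with CCGGAAGT were APPL2, an endosomal adaptor, with 15 tags at fold 16.4, and IKZF4, an Ikaros-family zinc finger, with 14 tags at fold 7.65. A match of letters is a description and does not make a stretch a binding site.

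Member peaks were small. The median member held 21 ChIP tags (quartiles 15 and 29, range 8 to 78), was 342 bp long (quartiles 261 and 468) and had a fold of 7.53 (quartiles 6.14 and 9.36). The authors' false discovery rate (FDR), which is a percent, had a median of 2.83% and was at most 5% in 1877 members (82.7%). Because these values decided which peaks entered the lists, they are a description. The 76 peaks at protein-coding ends that overlapped an attached peak, also under 750 bp, held a median of 34.5 tags at fold 11.7. Suspended-only peaks elsewhere held fewer tags in shorter peaks but at higher fold. Those inside genes had a median of 11 tags, 211 bp and fold 9.94, and those between genes 11 tags, 200 bp and fold 10.2. The 579 peaks at the ends of noncoding genes came between, with 16 tags, 265 bp and fold 8.77.

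**Figure D1:**
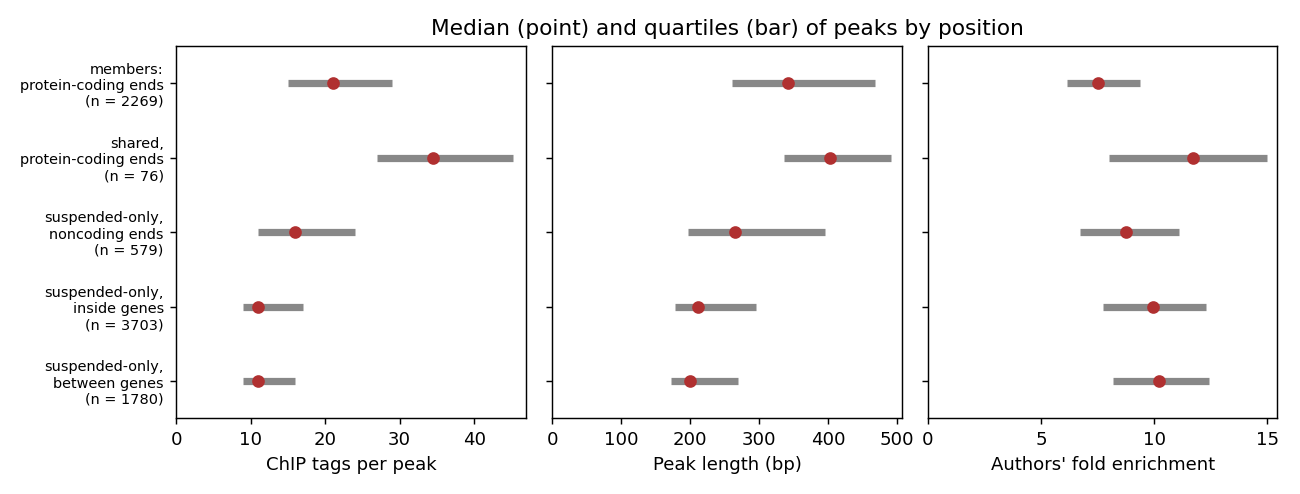
Median (point) and quartiles (bar) of ChIP tags per peak, peak length in bp and the authors' fold enrichment, for suspended peaks by position. Member peaks had a median of 21 tags against 11 for suspended-only peaks inside or between genes, and the lowest median fold, 7.53.

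The highest fold belonged to TPH2, the enzyme that starts serotonin synthesis in neurons, with 19 tags (exact Poisson 95% interval 11.4 to 29.7) at fold 24.0 and the summit 45 bp into the gene. HERPUD1, an endoplasmic reticulum protein induced by unfolded proteins, followed with 25 tags at fold 23.2, 448 bp upstream of its start. SLC22A15, a membrane transporter, had 56 tags (42.3 to 72.7) at fold 23.1, which made it the only one of these 3 with more than 50 tags. SF3A3, a subunit of the U2 small nuclear ribonucleoprotein, had 31 tags at fold 22.1, 535 bp into the gene. DRD2, a dopamine receptor, had 22 tags at fold 22.1. SPPL2A, an intramembrane protease of lysosomes and endosomes, had 12 tags (6.20 to 21) at fold 20.5, 8 bp upstream of its start. GPR6, an orphan G protein-coupled receptor, had 35 tags at fold 20.2. MUC17, a membrane mucin, and RWDD1 were also among the 10 highest, at fold 21.4 and 20.5, both at the end opposite the start.

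The members with most tags were other peaks, of lower fold. SLC6A18, a kidney amino acid transporter, had 78 tags at fold 10.1 near the end opposite its start. SRD5A1, a steroid 5-alpha reductase, had 70 tags at fold 5.02, and EFTUD2, a spliceosomal GTPase, had 68 at fold 11.7. GHR, the growth hormone receptor, had 68 tags at fold 6.25, 30 bp from its start. The remaining 6 were PPFIBP1, PAIP1, SDHA, COPS7A, PSMD4 and TMEM107, with 60 to 69 tags at fold 4.01 to 6.83. Of the 10, SLC6A18, SRD5A1, PAIP1, GHR and SDHA lay on chromosome 5.

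The members just within the limits of the rule overlapped in tags with the peaks just left out. Just inside 1 kb, KDM5B, a histone demethylase, had its summit at 998 bp with 26 tags at fold 8.62, and SNX17, an endosomal sorting nexin, at 997 bp with 34 tags at fold 8.13. C1orf56, MTSS1 and YES1 followed at 996, 995 and 994 bp with 28, 24 and 24 tags. Just outside, NAB2, METRN, SOX18 and YWHAZ lay at 1001 bp with 18, 19, 21 and 39 tags, and VASH2 at 1003 bp with 12. At the length limit, SDHA, ZC3H4 and FBXW4 were members at 748, 746 and 744 bp with 62, 40 and 52 tags. BMPR1A and H3C7, both 752 bp long, and PEMT, at 754 bp, were left out with 41, 53 and 56 tags.

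The rule took either end of a gene, and the members lay mostly at starts. Strand was known from the promoter table for 1884 members, and the nearest end was the start in 1690 of them (89.7%, exact Clopper-Pearson 95% interval 88.2 to 91.0). For the other 385 members the strand was not in the table. Intervals here and below cover counting error only, and tags without molecular identifiers are not independent molecules. Summits lay a median of 277.5 bp from the start (quartiles 123 and 504.5), and 759 (44.9%, 42.5 to 47.3) were within 250 bp. They fell more often inside the gene than upstream of it: 1057 of 1690 (62.5%, 60.2 to 64.9) were downstream, and the median position was 127 bp into the gene (95% interval of the median 93 to 152). The fullest 200 bp steps were the first inside the gene, with 333 summits (19.7%), and the last upstream of it, with 292 (17.3%). Between 800 and 1000 bp, 98 summits lay inside the gene and 34 upstream.

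Shared peaks were also mostly at starts, 48 of 54 with known strand (88.9%, 77.4 to 95.8), but were placed differently around them. Of these 48, 21 (43.8%, 29.5 to 58.8) were downstream, and their median position was 18.5 bp upstream of the start (89 bp upstream to 60 bp downstream). The interval did not overlap that of the members. No test between the sets was made, since overlap with the attached list defined both. Suspended-only peaks of 750 bp or longer resembled the members in place, with a median 133 bp into the gene (33 to 218).

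**Figure D2:**
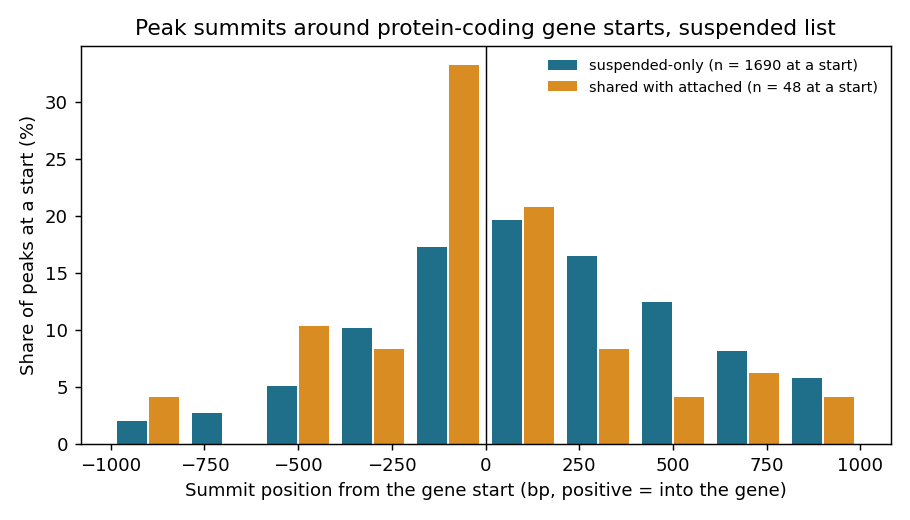
Share (%) of peaks at a start in 200 bp steps of summit position from the protein-coding gene start, where positive values lie inside the gene, for 1690 members and 48 shared peaks. Members had 19.7% of summits in the first 200 bp of the gene and tapered slowly into it, while shared peaks had 33.3% in the last 200 bp upstream.

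Distance from the start went with little difference in the peaks themselves. Members within 100 bp, from 100 to 250, from 250 to 500 and from 500 to 1000 bp held a median of 22, 22, 22 and 20 tags at fold 7.65, 7.02, 7.39 and 7.76. Members with the highest scores were more often at starts. The score restates each peak's MACS p-value so that smaller p-values give higher scores. In 4 groups of about equal size, from the lowest to the highest score, 87.4%, 86.7%, 90.8% and 94.1% of members with known strand lay at a start, and the median length rose from 270 to 452 bp.

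At the opposite end of the gene lay 194 members. They were shorter peaks with fewer tags, a median of 266 bp and 16 tags at fold 8.42, against 350 bp, 22 tags and fold 7.45 at starts. Of the 194, 30 (15.5%, 10.7 to 21.3) had a start of some gene in the promoter table within 1 kb, so 164 were away from every start in that table. The highest fold among these 164 was at MUC17, with 41 tags and an FDR of 0%, the summit 280 bp before the gene's end. RWDD1 had 17 tags at fold 20.5. GJA1, which encodes the gap junction protein connexin 43, had 8 tags at fold 17.7, 593 bp beyond its end. FOXI3, a forkhead factor, had 10 tags at fold 16.4.

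The 2269 members touched 2408 protein-coding genes, which is 12.0% of the 20037 in the table (11.6 to 12.5). Of these genes, 2161 had 1 member, 233 had 2 and 14 had at least 3. FBXL19, an F-box protein that binds CpG-rich DNA, and PFN1, which encodes the actin-binding profilin, had 4 each. At PFN1, on chromosome 17, peaks of 22 and 24 tags lay 987 and 584 bp into the gene from its start, 1 of 24 tags lay near its other end, and 1 of 27 tags was nearest the neighbouring ENO3. At FBXL19, on chromosome 16, peaks of 18 and 24 tags lay 569 and 817 bp into the gene, and 2 lay where it meets ORAI3, a calcium channel subunit, with 14 and 26 tags. CDC25C, the phosphatase that activates CDK1 at mitosis, had 3 members at its start, with 46, 22 and 21 tags. PFN1, FBXL19 and CDC25C were picked out after their counts were seen. Members lay at both ends of 58 genes.

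SPIB itself had no member at either end. Neither did SNAP47, a SNARE-related protein. JMJD4, a hydroxylase gene that lies inside the SNAP47 span on the opposite strand (chromosome 1, 227731191 to 227735302), had 2, named here because earlier results pointed to this locus. Their summits lay 358 and 902 bp upstream of the JMJD4 start. Both peaks were also inside the SNAP47 span, though not within 1 kb of either of its ends. The first had 14 tags (7.65 to 23.5) at fold 9.64 and an FDR of 6.36%, near the highest FDR of any member, 6.42%. The second had 17 tags (9.90 to 27.2) at fold 6.92 and an FDR of 2.75%. The tag intervals of both peaks overlap.

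Of the members, 385 (17.0%, 15.4 to 18.6) lay within 1 kb of the ends of at least 2 protein-coding genes, and 17 near 3. Among all 15842 protein-coding starts in the promoter table, 3137 (19.8%) had another protein-coding end that near, a share counted over starts rather than peaks. In a divergent pair, neighbouring genes start head to head. A divergent protein-coding start lay within 1 kb of 293 of the 1827 starts with a member (16.0%, 14.4 to 17.8), and of 1605 of all 15842 (10.1%, 9.67 to 10.6). The background was 11.5%, the share of the 15842 starts that had a member. With a divergent protein-coding partner it was 18.3% (16.4 to 20.2), and without one 10.8% (10.3 to 11.3). A start with a partner can also take a peak that belongs to the partner, and that part was not tested. Divergent noncoding starts showed a smaller difference, 10.6% (9.19 to 12.1) of starts with a member and 7.49% (7.08 to 7.91) of all. None of these shares was split by how rich the starts were in the dinucleotide CG.

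At 150 members placed at head-to-head pairs, the starts were a median of 172 bp apart, and in 29 (19.3%, 13.3 to 26.6) the summit fell between them. The pairs named here were picked by fold. CWC15, a spliceosome component, and KDM4D, a histone demethylase, start 153 bp apart and shared a peak of 24 tags at fold 14.8 with the summit between them. MRPL50, of the mitochondrial ribosome, and ZNF189, a zinc finger gene, shared 11 tags at fold 13.5. SEPTIN10 and SOWAHC shared 19 tags at fold 13.1, again between the starts, and AIDA and BROX 41 tags at fold 12.7.

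Starts with a member were richer in CG dinucleotides than starts in general. CpG content was taken as observed over expected CG in the 300 bases of the promoter table, from 250 bases before to 50 after the start. Its median was 0.849 (quartiles 0.720 and 0.959) in the 1827 starts with a member, 0.745 in the 14015 without and 0.761 in all. At or above 0.6, here named CpG-rich, were 87.1% (85.5 to 88.6) of starts with a member and 65.6% of all. Put the other way, 15.3% of the 10387 CpG-rich starts had a member, and 4.33% of the 5455 CpG-poor ones. The share rose from 2.06% (1.48 to 2.78) below 0.2 to 14.0% (12.8 to 15.2) between 0.6 and 0.8, and then little more, to 16.7% (15.1 to 18.5) at 1 and above. GC share differed less, with a median of 65.3% in starts with a member and 62.7% in all. CpG content did not move with the score of the member, with medians of 0.849, 0.855, 0.836 and 0.843 from the lowest-scoring to the highest-scoring of the same 4 groups.

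**Figure D3:**
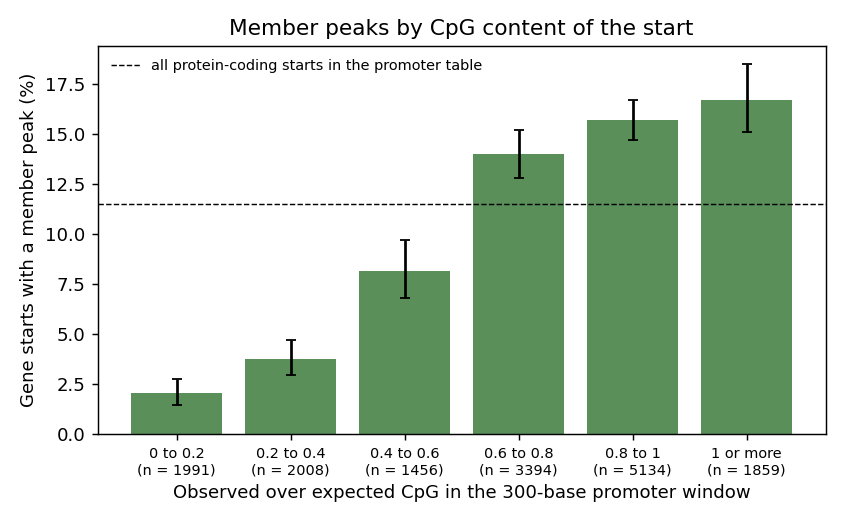
Share (%) of protein-coding starts with a member (bar, with exact 95% interval) by observed over expected CpG of the 300-base promoter window, with a dashed line at 11.5% for all starts. The share was 2.06% in the lowest step and 16.7% in the highest.

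Of 16 runs of letters searched on both strands of the same 300 bases, the ETS types GGAAGT and CCGGAAGT were found more often at starts with a member. GGAA alone was nearly everywhere, in 96.2% of starts with a member and 95.2% of all. GGAAGT was found in 601 of 1827 (32.9%, 30.7 to 35.1) against 24.7% of all 15842 starts. CCGGAAGT was found in 183 (10%, 8.68 to 11.5) against 6.15%. GAGGAAGT was in 61 (3.34%, 2.56 to 4.27) against 2.5% (2.26 to 2.75), where the intervals overlap. GAGGAAGT, AGAGGAAGT and CCGGAAGT all contain GGAAGT, which contains GGAA, so these counts overlap. Because members sit at CpG-rich starts, the shares were also taken among CpG-rich starts with and without a member. GGAAGT was then in 33.2% (30.9 to 35.6) against 24.5% (23.6 to 25.4), GAGGAAGT in 3.33% (2.51 to 4.33) against 1.84% (1.57 to 2.14), and CCGGAAGT in 11.3% (9.74 to 12.9) against 8.53% (7.95 to 9.13). The longer run AGAGGAAGT was in 0.930% of starts with a member against 0.934% of all. Among CpG-rich starts it was in 0.88% (0.482 to 1.47) against 0.603% (0.452 to 0.787), where the intervals overlap.

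Among the other runs, AAGATGGCG, the core letters of the factor YY1, stood out most. It was found in 97 starts with a member (5.31%, 4.33 to 6.44) and in 2.69% of all, and among CpG-rich starts in 5.91% (4.80 to 7.18) against 3.54% (3.16 to 3.94). GGGCGG, the GC box of Sp1-type factors, was in 71.3% against 58.3% of all starts, but among CpG-rich starts the shares were 76.7% and 77.4%. TATAAA, the TATA box, was less frequent, in 5.25% against 9.75% of all, and in 4.40% (3.45 to 5.53) against 5.13% (4.68 to 5.61) of CpG-rich starts, where the intervals overlap. CCAAT was in 36.3% against 36.4%. TGACTCA, the AP-1 site, was in 2.52% against 3.62% of all starts and in 1.95% against 1.92% of CpG-rich ones. The other shares, with a member against all, were 10.2% and 8.82% for CACGTG, 3.67% and 2.56% for TGACGTCA, 1.70% and 1.05% for TCTCGCGAG, and 3.61% and 2.89% for CGCATGCG. For CAGCACC and GGACAGC, parts of the site of the neuronal repressor REST, they were 9.03% and 7.68%, and 8.54% and 6.89%. Among CpG-rich starts with and without a member, CACGTG was in 10.4% and 10.8%, and CGCATGCG in 4.15% and 4.31%. TGACGTCA was in 4.15% and 3.46% of them, and TCTCGCGAG in 1.89% and 1.51%, with overlapping intervals. CAGCACC was in 8.86% and 7.45%, also with overlapping intervals, and GGACAGC in 8.61% (7.28 to 10.1) and 6.66% (6.15 to 7.20).

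Nearer the summit, GGAAGT and GAGGAAGT differed more from promoters in general. The summits of 464 members lay inside 493 promoter windows, and in 313 windows a full 50 bp was present on both sides. These windows end 50 bases into the gene, while the median summit at a start lay 127 bp into it. Most of the 2269 members were therefore not examined in this way. GGAAGT was within 50 bp of the summit in 89 of 313 (28.4%, 23.5 to 33.8), against 10.1% at the same places of all promoters and 10.8% of CpG-rich ones. GAGGAAGT was there in 20 (6.39%, 3.95 to 9.70), against 0.896% and 0.723%. AGAGGAAGT was there in 5 (1.60%, 0.521 to 3.69), against 0.340% and 0.235%. CCGGAAGT, in 12 (3.83%, 2 to 6.60), was near its share of 3.82% at the same places of CpG-rich promoters. AAGATGGCG was there in 6 (1.92%, 0.707 to 4.13), against 0.984% of CpG-rich ones, and the interval holds that value. TATAAA was within 50 bp of a summit in 1 window (0.319%, 0.00809 to 1.77).

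Counted by distance, matches to GGAAGT fell steadily away from the summit. There were 3.49 per kb of window (exact Poisson 95% interval 2.78 to 4.34) within 25 bp, 2.56 from 25 to 50 bp, 2.18 from 50 to 75 bp and 1.22 (0.875 to 1.65) from 150 to 250 bp, against 1.04 over all promoters. GAGGAAGT was found 13 times within 25 bp, 11 times from 25 to 50 bp, not at all from 50 to 100 bp, 5 times from 100 to 150 bp and 6 times from 150 to 250 bp. Its density within 25 bp was 0.563 per kb (0.300 to 0.963), against 0.0873 over all promoters and 0.180 in each of the last 2 steps. CCGGAAGT had 0.650 per kb (0.364 to 1.07) within 25 bp, above its 0.234 over all promoters, then 0.380, 0.320, 0.907 (0.508 to 1.5), 0.252 and 0.360 in the successive steps out to 250 bp, with no steady order. Of 134 GGAAGT matches near summits whose preceding base was in the window, C came before 48.5% (39.8 to 57.3), against 39.0% in all promoters, and T before 5.22% (2.13 to 10.5), against 11.9%. A, the base before GGAAGT in GAGGAAGT, came before 30.6% (22.9 to 39.1), against 27.9%, and G before 15.7% (9.97 to 23), against 21.2%. The intervals for A and G hold the value of all promoters. C before GGAAGT makes a CG dinucleotide, and these shares were not taken over CpG-rich promoters alone.

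**Figure D4:**
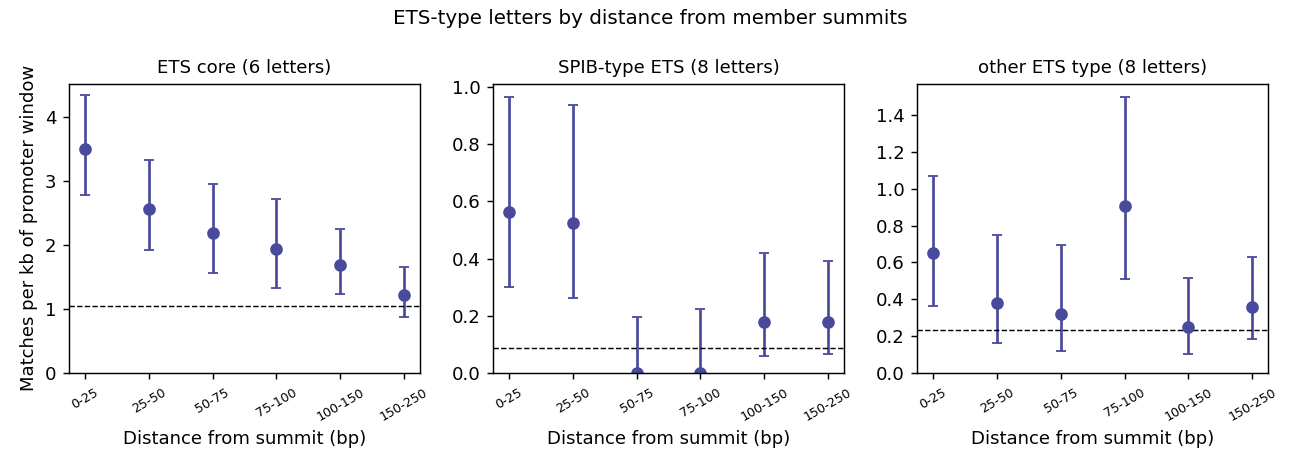
Matches per kb of promoter window by distance from the member summit in bp (points, exact Poisson 95% intervals for counting error), for GGAAGT (left), GAGGAAGT (middle) and CCGGAAGT (right). Only members with the summit inside a promoter window are counted. Dashed lines give the density over all promoters. GGAAGT fell from 3.49 to 1.22 per kb, and GAGGAAGT had no match from 50 to 100 bp and 11 beyond it.

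Genes with a member were compared with the 12.0% of all protein-coding genes by 33 gene lists. In 15 lists the share was at least 1.5 times that of all genes, and in 13 lists it was below that of all genes. Of the 15, 14 stayed above the background in every alternative setting of distance, length, FDR, score, nearby attached peaks and shared peaks, and of the 13, 5 stayed below it. These are descriptions with no test of the lists, whose genes can share a peak. The lists furthest above the background in value belonged to ribosomal proteins, splicing, nuclear transport, autophagy receptors and autophagosome-lysosome fusion. For autophagy receptors the exact interval, 9.69 to 53.5, held the 12.0% of all genes. Among the 15 it also did for autophagosome formation, MTOR and AMPK signalling, apoptosis, the proteasome, aminoacyl-tRNA synthetases and ETS factors. The 2 autophagy lists are short. Among CpG-rich starts, where 15.3% of all had a member, fusion was at 15.4% (2 of 13) and receptors at 21.4% (3 of 14).

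Of 86 cytoplasmic ribosomal protein genes, 25 had a member (29.1%, 19.8 to 39.9). RPS19 had 54 tags at fold 10.6, 375 bp upstream of its start, and RPL12 27 tags at fold 12.3, 824 bp upstream. That RPL12 summit lay past the start of LRSAM1, which begins head to head with RPL12, 80 bp away. RPL28 had 17 tags at fold 8.19, 140 bp into the gene. RPL18, RPL41 and RPL9 had 28, 15 and 13 tags at fold 11, 9.93 and 8.82. The RPL18 summit likewise lay past the start of its head-to-head neighbour SPHK2, 328 bp from that of RPL18. Of 77 mitochondrial ribosomal protein genes, 20 had a member (26.0%, 16.6 to 37.2). MRPL50 had the highest fold, 13.5 with 11 tags, and MRPS18A the most tags of the 6 highest by fold, 38 at 8.23, with the summit 8 bp into the gene. Translation initiation and elongation factors had a member at 15 of 71 (21.1%, 12.3 to 32.4). EIF1AD had 31 tags at fold 9.83, 47 bp upstream of its start. That list was drawn by symbol and also holds regulators, such as EIF2AK4, the amino acid sensor GCN2, with 9 tags at fold 12.8. Aminoacyl-tRNA synthetases, which charge tRNAs, had a member at 7 of 37 genes (18.9%, 7.96 to 35.2), among them the mitochondrial enzyme IARS2 with 32 tags at fold 10.3, 16 bp into the gene.

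Splicing factor genes had a member in 21 of 91 (23.1%, 14.9 to 33.1). All 3 SF3A subunits of the U2 particle were among them, SF3A3 with 31 tags at fold 22.1, SF3A2 with 14 at 12.2 and SF3A1 with 25 at 8.90. SF3B3 had 30 tags at fold 11.3, and the serine-arginine proteins SRSF9 and SRSF8 had 14 and 11 tags at 10.9 and 11.5. Nuclear pore genes had one in 8 of 29 (27.6%, 12.7 to 47.2). RAE1, an mRNA export factor, had 8 tags at fold 10.2, 7 bp upstream of its start. NUP58 and NUP54, of the central channel, had 12 and 17 tags, and TPR, of the nuclear basket, 21. Of 509 ZNF-named zinc finger genes, many of them repressors of transposons, 95 (18.7%, 15.4 to 22.3) had a member. ZNF227 had 27 tags at fold 19.4, 45 bp upstream of its start, and ZNF234 39 tags at fold 13.3, 2 bp upstream. ZNF337, ZNF160 and ZNF587B had 8 to 15 tags at fold 14.0 to 17.4.

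The series title speaks of the autolysosome and of resistance to anoikis, the death of cells that lose attachment. Genes of autophagosome-lysosome fusion had a member in 7 of 23 (30.4%, 13.2 to 52.9). VPS33A, VPS16 and VPS41, subunits of the HOPS tethering complex, had 11, 9 and 26 tags at fold 13.1, 10.2 and 5.57, and the SNARE YKT6 31 tags at 6.30. Autophagy receptors had one in 5 of 18 (27.8%, 9.69 to 53.5). SEC62 and RETREG1, receptors for the endoplasmic reticulum, had 40 and 52 tags at fold 6.94 and 5.17, upstream of their starts by 102 and 252 bp, and the mitophagy receptor BNIP3 had 13 tags at 10.4. Autophagosome formation genes had one in 7 of 38 (18.4%, 7.74 to 34.3). Besides NRBF2, ATG12, a ubiquitin-like conjugation factor, had 34 tags at fold 8.80, 38 bp into the gene, and ULK1, the initiating kinase, 11 tags at 8.72. GABARAP, which decorates autophagosomes, had 56 tags at 7.38 but near the end opposite its start. So did ATG7 and ATG4B, with 11 tags each.

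Lysosome genes had a member in 6 of 36 (16.7%, 6.37 to 32.8), with CTSV, a cathepsin, at 15 tags and fold 14.4 and GLA, alpha-galactosidase, at 35 tags and 6.60. The GLA peak was nearer the start of the neighbouring HNRNPH2, 233 bp into that gene. MTOR and AMPK signalling genes had one in 8 of 38 (21.1%, 9.55 to 37.3). RPTOR, the scaffold of MTOR complex 1, had 31 tags at fold 6.70, 92 bp upstream of its start, and AKT1 38 tags at 7.76 near its other end. Apoptosis genes had one in 8 of 38 as well. Both sides of the pathway were present. The killers APAF1, PMAIP1 and BAD had 27, 28 and 22 tags at fold 8.19, 8.40 and 6.55, and the inhibitors CFLAR and XIAP 23 and 19 tags at 9.36 and 6.27. The APAF1 peak was nearer the start of IKBIP, its head-to-head neighbour.

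The shares were also taken over CpG-rich starts alone. Among them, where 15.3% of all had a member, the share was 28.4% for both cytoplasmic (19 of 67) and mitochondrial (19 of 67) ribosomal protein genes, 28.6% for nuclear pore (8 of 28), 24.1% for translation factors (13 of 54), 22.5% for splicing factors (16 of 71) and 18.9% for ZNF genes (64 of 339). It was 21.4% for autophagy receptors (3 of 14) and 21.1% for apoptosis (4 of 19). For autophagosome-lysosome fusion it was 15.4% (2 of 13), for lysosome 16.0% (4 of 25), for autophagosome formation 13.3% (4 of 30) and for MTOR and AMPK signalling 13.8% (4 of 29). For aminoacyl-tRNA synthetases it was 13.8% (4 of 29), for the proteasome 17.1% (6 of 35) and for cyclins and CDKs 17.6% (12 of 68). These last 7 lists were between 13.3% and 17.6%, near the background of CpG-rich starts. The counts are small and leave out members at the other end and genes without a promoter sequence.

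Other lists above 1.5 times the background were the proteasome (9 of 48, 18.8%), cyclins and CDKs (18 of 84, 21.4%) and ETS factors (5 of 27, 18.5%), whose ratio to all genes was 0.847 with summits within 500 bp of an end. PSMD7, a subunit of the proteasome lid, had 16 tags at fold 16.8, 21 bp upstream of its start. Among the cell cycle genes, drawn by symbol and including CDC-named and E2F genes, CDK16 had 11 tags at fold 12.9 and the cyclin CCNE2 23 tags at 7.71. ETV3, ELK4 and ERF, of the ETS family, had 22, 16 and 42 tags at fold 7.71, 9.27 and 6.13. Nearer the background were ubiquitin-conjugating and deubiquitinating enzymes (15 of 95, 15.8%), chaperones (11 of 73, 15.1%), the respiratory chain (13 of 87, 14.9%) and DNA replication and repair (12 of 86, 14.0%). The 11 chaperone genes shared 9 distinct peaks. With only the members near a single gene, the ratio of chaperones to all genes was 0.793. TAF5 and MED26 were among the 8 of 75 RNA polymerase II and mediator genes (10.7%). RAB GTPases had one in 7 of 63 (11.1%) and histones in 10 of 94 (10.6%), where the variant H2AZ1 had 32 tags at fold 13.5.

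Shares of tissue-restricted lists were lower in value than 12.0%, but only for olfactory receptors, keratins and HOX genes did the exact interval leave it out. No member was found at 392 olfactory receptor genes, which by 3 counts of the total allows a share of up to 0.765% (exact upper limit 0.937%). The same held at 55 keratin genes (5.45%, exact 6.49%) and 39 HOX genes (7.69%, exact 9.03%). Few of the olfactory receptor and keratin starts were CpG-rich, 7 and 0, but 18 starts of the 39 HOX genes were. None of these 18 HOX starts had a member, against 15.3% of all CpG-rich starts, and the count is small. The share of all CpG-poor starts with a member, 4.33%, lies inside the exact interval for keratins. It also lies inside that for HOX genes, but their starts were not all CpG-poor. Among CpG-rich starts a member was found at 7 of 75 ion channel (9.33%), 3 of 32 synapse (9.38%), 2 of 21 cell-matrix adhesion (9.52%), 2 of 20 junction (10%), 1 of 5 B cell and plasmacytoid dendritic cell (20%) and 0 of 3 squamous starts. Ion channels had one in 15 of 199 (7.54%, 4.28 to 12.1) and synapse genes in 6 of 65 (9.23%, 3.46 to 19.0), led by SYN1 with 17 tags at fold 14.3. The list for the lineages that express SPIB, B cells and plasmacytoid dendritic cells, had a member in 3 of 32 (9.38%, 1.98 to 25). These were CD40 with 20 tags at fold 12.2, CLEC4C with 26 at 6.34, and BTK, whose peak of 35 tags is also at the start of RPL36A. Squamous genes had one in 2 of 20 (10%, 1.23 to 31.7), DSG3 and IVL, both at the end opposite the start. Cell-matrix adhesion genes had one in 5 of 51 (9.80%, 3.26 to 21.4), among them VCL, vinculin, with 37 tags at fold 6.41, besides ITGAV. Cell junction and epithelial-mesenchymal transition genes had one in 6 of 59 (10.2%, 3.82 to 20.8), with ZEB1, a repressor of epithelial genes, at 22 tags and fold 10.6, 46 bp upstream of its start. Of 16 heat shock and stress factors, 1 had a member (6.25%), MTF1 with 23 tags at fold 8.67.

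**Figure D5:**
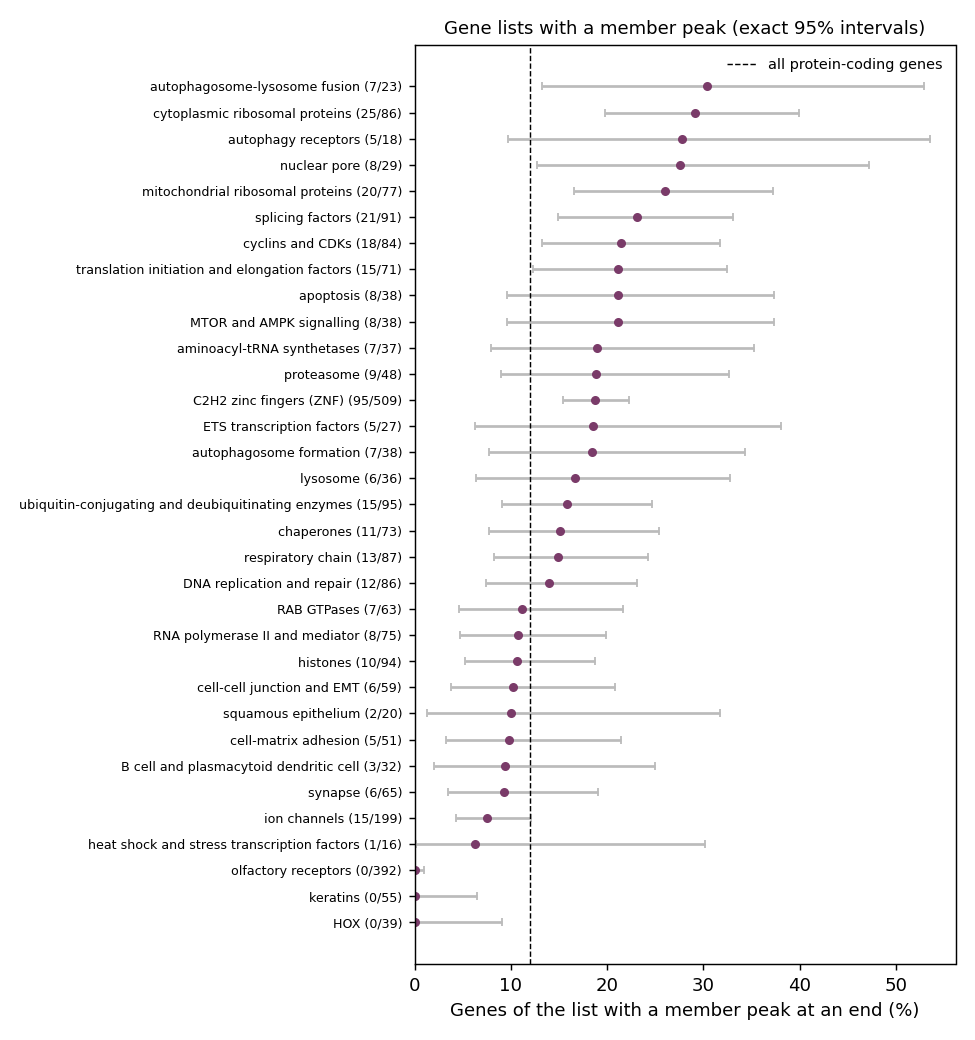
Share (%) of the genes of each list with a member at an end (point, exact 95% interval for counting error), with a dashed line at 12.0% for all protein-coding genes. Fusion, ribosomal protein, autophagy receptor and nuclear pore genes were highest, at 26.0% to 30.4%, and olfactory receptor, keratin and HOX genes had none.

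Members were spread unevenly over chromosomes. A member was found at 19.6% (15.1 to 24.9) of protein-coding genes on chromosome 18, 19.3% (17.1 to 21.7) on 17, 16.6% (14.0 to 19.5) on 10 and 16.1% (13.9 to 18.5) on 6. The share was 5.78% (4.31 to 7.57) on X, 5.86% (3.24 to 9.63) on 21, 7.10% (4.60 to 10.4) on 13 and 7.99% (6.58 to 9.60) on 11, and 0 of 63 on Y. The median tags of members were 26, 29, 28 and 27 on chromosomes 18, 17, 10 and 6, and 15, 17, 14 and 17 on X, 21, 13 and 11. The median fold was 6.92, 6.37, 6.73 and 6.55 on the first 4, and 8.74, 7.79, 9.10 and 8.82 on the others. Not every chromosome followed this order. Chromosome 22 had a member at 14.6% of genes with a median of 17 tags at fold 8.66, chromosome 19 at 13.1% with 17 tags at 8.21, and chromosome 8 at 9.37% with 24 tags at 7.02. The input reads were not analysed here, so the part of DNA copy number in these shares was not tested.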

How the data were processed

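Per the file headers, MACS 1.4.2 was run on each ChIP library with its matching input as control, at a p cutoff of 1e-05. The submitters' processing notes name hg38. The aligner was not given in the sources used here. The deposited tags per peak are raw counts of ChIP tags, fold enrichment is the authors' ratio to the local background, and the FDR is the authors' percent. The authors' score was read as minus 10 times log10 of p from its place and range, since its column name was lost. These values only described, ranked or filtered peaks.

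Genes came from the RefSeq table and starts from the RefSeq promoter table, which held 15842 of 20037 protein-coding genes. Starts, strand, letters and CpG content rest on those genes. A genome of the build was not used here, so letters near summits were counted inside promoter windows, a choice made after seeing the data. Members, gene lists and tests were chosen with earlier results of these data known. Genes were named by rule: the 10 members of highest fold and of most tags, 5 on each side of 1 kb, up to 6 per list by fold, SPIB and SNAP47. Others named were picked after their values were seen. A few genes under this rule are not reported here. Some lists were drawn by symbol and hold genes that only share the name. Medians, exact Clopper-Pearson and exact Poisson 95% intervals were computed with SciPy 1.17.1, pandas 2.3.3 and numpy 2.4.6 under Python 3.11.15. Figures used matplotlib 3.10.9. The counting steps were tested on simulated data. Alternatives varied the FDR, the score, the distance, the peak length, attached peaks nearby and genes sharing a peak.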

Additional observations from a re-analysis of the deposited data

How the results depend on the processing

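With peaks above the median score of the suspended list, 1396 members at 1544 genes remained, and 91.7% lay at a start. With peaks under 400 bp there were 1417 members at 1555 genes, 87.3% at a start, and GGAAGT in 30.7%. With summits within 500 bp of an end, 91.6% lay at a start, the median distance was 202.0 bp, 11.9% were near at least 2 genes and GGAAGT was in 36.1%. Within 2 kb these were 86.7%, 355.5 bp and 21.9%, changes that follow from the distance itself. With the summit inside the promoter window, GGAAGT was in 44.0% and GAGGAAGT in 6.69%. The other 55 alternative values of the main results moved by less than their interval or by less than 1.5 times. Of the 15 lists at 1.5 times the background or more, 5 were so in every setting and 14 stayed above it. The exception was ETS factors, whose ratio ranged from 0.847 to 2.40. Of the 13 lists below the background, 5 were below it in every setting. No paired analysis was possible because each group has 1 library, and for the same reason no library could be left out. A median of 21 tags per member limits the precision of single peaks.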
